A study of Mus musculus with 8 samples.

Results

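Matrix metalloproteinases (MMPs) and tissue inhibitors of metalloproteinases (TIMPs) were followed in sorted mouse mammary epithelial cells that lack or carry C/EBPb, a transcription factor. The set comprised Mmp2, Mmp3, Mmp7, Mmp11, Mmp14, Mmp15, Timp1, Timp2 and Timp3, taken as the probe sets whose platform gene symbol is one of these names. Of the 9 genes, 8 had a probe set among the 18194 genes named on the array, with 19 of its 45101 probe sets between them, while no probe set used here was annotated to Mmp15. The brightest probe set of each gene, by its mean on the 8 arrays, led, and the others served as a check. Mmp7 was too dim to be tested, which left 7 tested genes.

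Gene expression was measured on 8 Affymetrix arrays in 4 groups of 2 biological replicates. The groups were germline C/EBPb knockout (KO) LIN-CD24+CD29hi cells, wildtype (WT) LIN-CD24+CD29hi cells, KO LIN-CD24hiCD29lo cells and WT LIN-CD24hiCD29lo cells, called CD29hi and CD29lo below. Per the labels, the cells came from 2 paired sets of KO and WT glands with 10 mice per group. The deletion is germline, so the stroma and the rest of the animal carried it too. The labels name neither the age of the mice, nor the animals behind each array, nor the deleted part of the gene. Values are log2 signals as deposited, and a difference is a difference of log2 values.

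MMPs are zinc-dependent endopeptidases that cut collagens, laminins and other matrix proteins as well as growth factors and cell-surface proteins. Most are secreted as inactive proenzymes, whereas Mmp14 and Mmp15 are anchored in the cell membrane, and TIMPs block the active site. In the mammary gland they are known for their part in branching of the ducts and in remodelling of the gland after lactation, and much of the MMP and TIMP message of the gland comes from stromal cells.

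The knocked-out gene and the markers of the gates followed the labels. Cebpb read 8.60 to 9.38 in the 4 KO arrays and 11.83 to 12.25 in the 4 WT arrays, with a log2 difference of -3.03 ± 0.194 (SE, limma adjusted p = 0.00277). Of the 10 basal markers tested, 9 were called higher in CD29hi than in CD29lo and 0 lower, and all 11 luminal markers tested were called lower in CD29hi. Over all genes tested, 12.2% were called higher and 10.8% lower. A background was set on each array at the 95th percentile of the signal of its 27 control probe sets for Bacillus subtilis genes, and it lay between 3.84 and 4.41. This background was highest on KO CD29lo replicate 1, and the correlation between replicates was lowest in KO CD29lo (0.934, against 0.953 to 0.964 in the other groups).

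Fibroblast markers differed strongly between the gates, which touches every comparison of CD29hi with CD29lo. Of 19 markers tested, 12 were called lower in CD29hi and 0 higher, with a median log2 difference of -3.71, where 10.8% of all genes tested were called lower. In WT all 19 differences were below 0. In KO 14 were below 0 and 5 above, with Col5a1 the highest at 1.45. Their log2 signals summed to 114.87 and 136.18 in KO CD29hi, 104.46 and 124.67 in WT CD29hi, 134.15 and 195.23 in KO CD29lo, and 167.87 and 206.94 in WT CD29lo. No marker was at 0 on any array, and between 14 and 18 of the 19 stood above the background in CD29hi, against 18 or 19 in CD29lo. The collagen gene Col1a2 read 6.05 and 8.41 in KO CD29hi and 6.09 and 7.32 in WT CD29hi, against 8.95 and 12.31 in KO CD29lo and 11.17 and 12.60 in WT CD29lo. The mean of the 19 markers was 7.06 on KO CD29lo replicate 1, close to the 7.17 of KO CD29hi replicate 2 and far from the 10.28 of its own replicate. In sorted bulk RNA, fewer cells of a type and less RNA per cell cannot be told apart. Endothelial and pericyte markers had 0 of 9 called between the gates and blood cell markers 1 of 5, where 22.9% of all genes tested were called. The blood marker called was Cd68, higher in CD29hi, while 3 of the 5 had a difference below 0. The log2 signals of the 9 blood markers with a value summed to 30.8 to 35.23 in CD29hi and 35.72 to 37.36 in CD29lo.

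The sequences upstream of the 3 genes that differed between the gates in the fit of all arrays are shown, as far as RefSeq annotates their starts (build GRCm38.p6). Their composition sets Mmp3 apart from Timp2 and Timp3, which are alike in it. Of the 9 genes, 8 have a window in the RefSeq promoter table, and Mmp2 has none. Each stretch is the 250 bases before the annotated start, 5′ to 3′ on the gene's strand. Capitals mark the AP-1 letters TGANTCA, a site bound by Fos and Jun proteins, and the C/EBP letters TTGCNNAA, both searched on both strands.
Mmp3, chr9:7445572-7445821, plus strand: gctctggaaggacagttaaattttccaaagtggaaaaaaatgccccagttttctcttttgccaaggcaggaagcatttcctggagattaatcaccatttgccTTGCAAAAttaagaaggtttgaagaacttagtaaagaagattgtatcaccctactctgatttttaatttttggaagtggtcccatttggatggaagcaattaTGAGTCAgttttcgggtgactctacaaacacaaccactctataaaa
Timp2, chr11:118355412-118355661, minus strand: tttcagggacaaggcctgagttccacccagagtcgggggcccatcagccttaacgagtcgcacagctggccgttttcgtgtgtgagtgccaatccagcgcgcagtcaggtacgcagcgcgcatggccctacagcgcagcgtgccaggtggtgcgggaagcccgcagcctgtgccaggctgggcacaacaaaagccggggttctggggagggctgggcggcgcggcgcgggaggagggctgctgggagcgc
Timp3, chr10:86300162-86300411, plus strand: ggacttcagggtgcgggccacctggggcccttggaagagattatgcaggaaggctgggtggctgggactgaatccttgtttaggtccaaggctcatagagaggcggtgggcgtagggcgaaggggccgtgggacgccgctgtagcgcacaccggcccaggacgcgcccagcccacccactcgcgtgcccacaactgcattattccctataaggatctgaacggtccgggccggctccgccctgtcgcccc

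The Mmp3 stretch held 1 AP-1 match, which starts 46 bases before the annotated start, and 1 C/EBP match, which starts 148 bases before it. The Timp2 and Timp3 stretches held neither. Over all 32851 windows of this length, 6.75% held the AP-1 letters and 9.56% the C/EBP letters. The GC content was 37.6% for Mmp3, 68% for Timp2 and 65.6% for Timp3, against a median of 52.4% over all windows. One of the 2 windows of Mmp7 also held 1 match of each kind, and the windows of Mmp11, Mmp14, Mmp15 and Timp1 held none. A match is a run of letters, and no binding was measured.

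Between the gates, averaged over both genotypes, Mmp3 and Timp2 were lower and Timp3 was higher in CD29hi than in CD29lo. These 3 calls stand against a background of 22.9% of the 14598 genes tested (12.2% higher and 10.8% lower), and the median log2 difference of the 7 tested genes was -0.73, against 0.01 over all genes. Within KO alone and within WT alone, 1 of the 7 passed by its leading probe set, Mmp3 in both cases, against a background of 14.1% in KO and 8.19% in WT.

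**Figure D1:**
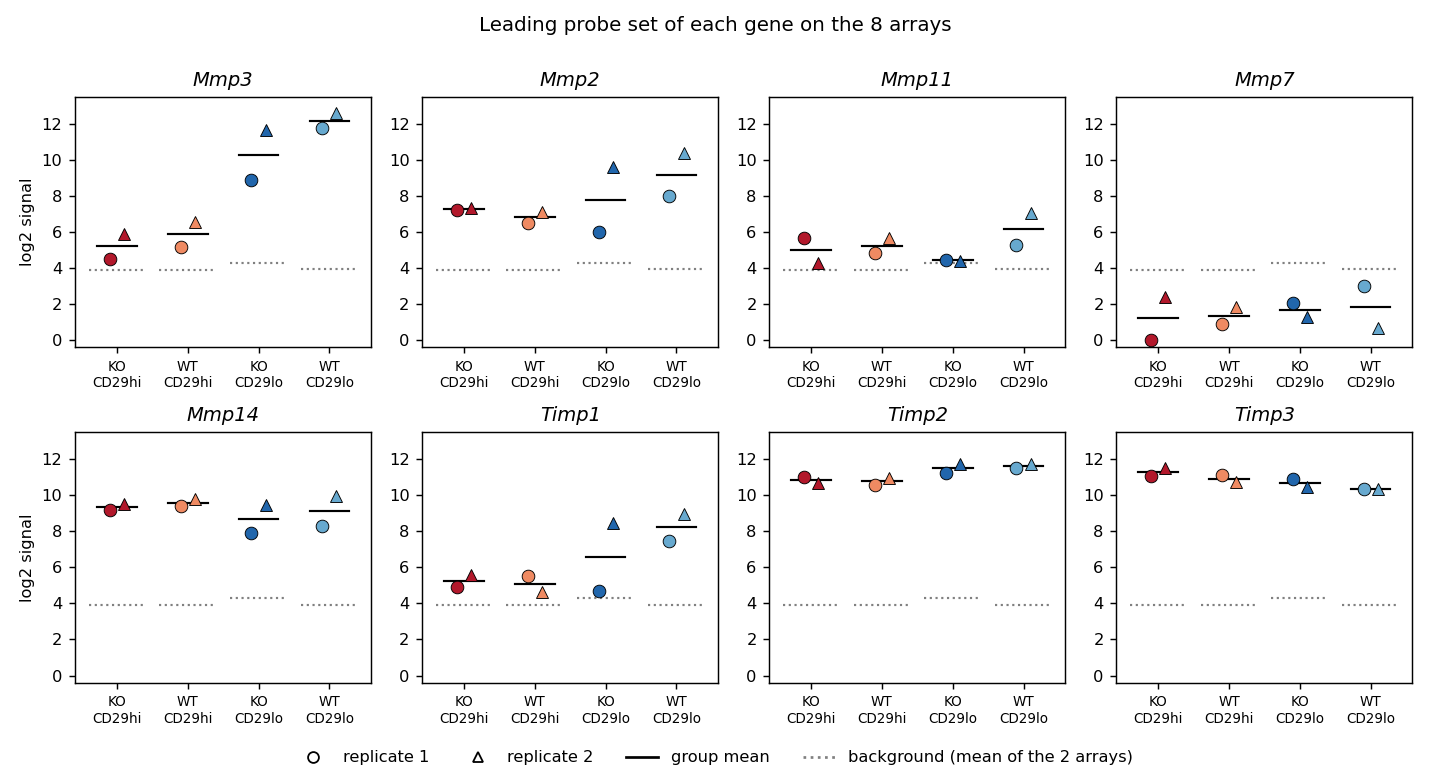
Log2 signal of the leading probe set of each gene with a probe set (vertical axis) in the 4 groups (horizontal axis). Circles are replicate 1 and triangles replicate 2, black bars are group means and dotted lines the mean background of the group's arrays. Mmp3 separates the gates on all 8 arrays, Mmp7 stays below the background, and the 2 CD29lo arrays of a genotype lie far apart for Mmp2 and Timp1.

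Among the secreted proteases, Mmp3 (stromelysin 1), which cleaves many matrix proteins and activates other proenzymes, had the largest difference of the 7 genes. It read 4.49 and 5.90 in KO CD29hi and 5.19 and 6.57 in WT CD29hi, against 8.88 and 11.63 in KO CD29lo and 11.74 and 12.58 in WT CD29lo. All 4 CD29hi arrays were below all 4 CD29lo arrays, as they were for 12.1% of all genes tested, and all 8 were above the background. The group means descended from WT CD29lo (12.2 ± 0.594) over KO CD29lo (10.3 ± 1.95) and WT CD29hi (5.88 ± 0.976) to KO CD29hi (5.20 ± 0.997; SD, n = 2 each), where the last pair overlapped. Averaged over the genotypes, CD29hi differed from CD29lo by -5.67 ± 0.628 on the log2 scale, a ratio of 0.0196 (limma adjusted p = 0.000512). It was -5.06 in KO (limma adjusted p = 0.00811) and -6.28 in WT (limma adjusted p = 0.00452). The averaged call and the call in WT held in every alternative fit, while the call in KO was lost without KO CD29hi replicate 1 (limma adjusted p = 0.0667).

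With the mean of the fibroblast markers as a covariate, the Mmp3 difference between the gates was -3.30 ± 0.451 (limma adjusted p = 0.00357). This mean ran from 5.5 to 7.17 in CD29hi and from 7.06 to 10.89 in CD29lo, so it hardly overlapped between the gates. For Mmp3 and the other genes, the covariate fit therefore cannot tell a gate difference from fibroblast RNA.

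Mmp2 (gelatinase A), which cleaves basement membrane and denatured collagen, varied more within CD29lo than between the gates. It read 7.20 and 7.31 in KO CD29hi and 6.51 and 7.09 in WT CD29hi, against 5.97 and 9.58 in KO CD29lo and 7.98 and 10.35 in WT CD29lo. KO CD29lo replicate 1 was the lowest of all arrays and its replicate the second highest. The log2 difference between CD29hi and CD29lo was -1.44 ± 0.779 and did not pass (limma adjusted p = 0.226). Without KO CD29lo replicate 1 it was -2.35 and passed (limma adjusted p = 0.0208), and it was also called with that array and WT CD29lo replicate 2 left out together (-1.75, limma adjusted p = 0.00668). With the fibroblast covariate it turned to 1.55 ± 0.503 (limma adjusted p = 0.0873).

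Mmp11 (stromelysin 3), known from stromal cells around tumours and in remodelling tissue, was dim and did not separate the gates. It read 5.66 and 4.28 in KO CD29hi and 4.84 and 5.65 in WT CD29hi, against 4.46 and 4.39 in KO CD29lo and 5.30 and 7.05 in WT CD29lo. Both KO CD29lo values lay just above the backgrounds of their arrays. Its averaged log2 difference was -0.19 ± 0.486 (limma adjusted p = 0.82, 95% confidence interval -1.31 to 0.92).

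Mmp7 (matrilysin), a protease of epithelial and glandular cells, was not detected. Its only probe set lay between 0 and 3.02 and was below the background on all 8 arrays, so no fold is given. It was not among the genes tested.

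Mmp14 (MT1-MMP), the membrane-anchored protease that activates proMmp2, was measured by 3 probe sets, all above the background on all arrays. The leading one read 9.15 and 9.52 in KO CD29hi and 9.41 and 9.76 in WT CD29hi, against 7.89 and 9.43 in KO CD29lo and 8.27 and 9.94 in WT CD29lo. The 4 CD29hi arrays lay close together and within the range of the CD29lo arrays, which spread over about the same width in both genotypes. Mmp14 had an averaged log2 difference of 0.58 ± 0.428 (limma adjusted p = 0.378) and did not pass. With the fibroblast covariate it was 2.17 ± 0.326 and passed (limma adjusted p = 0.00515), in KO (1.79) and in WT (2.55) as well. The limit of the covariate fit given for Mmp3 holds here too.

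Among the inhibitors, Timp1, a secreted inhibitor that is induced by many cytokines, followed the pattern of Mmp2. It read 4.89 and 5.55 in KO CD29hi and 5.51 and 4.62 in WT CD29hi, against 4.71 and 8.45 in KO CD29lo and 7.47 and 8.98 in WT CD29lo. KO CD29lo replicate 1 lay among the CD29hi arrays, and the other 3 CD29lo arrays were above all CD29hi arrays. The log2 difference between CD29hi and CD29lo was -2.26 ± 0.761 (limma adjusted p = 0.0664). It was -1.36 in KO (limma adjusted p = 0.456) and -3.16 in WT (limma adjusted p = 0.125). Without KO CD29lo replicate 1 the averaged difference was -3.20 (limma adjusted p = 0.003), the one in KO was -3.23 (0.0303), and the one in WT passed too (0.0156), as it did without KO CD29lo replicate 2 (0.016). With the fibroblast covariate the averaged difference was 0.33 ± 0.761 (limma adjusted p = 0.825).

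Timp2, which inhibits MMPs and also takes part in the activation of proMmp2 by Mmp14, was high on all arrays. Its leading probe set read 11.02 and 10.70 in KO CD29hi and 10.57 and 10.97 in WT CD29hi, against 11.22 and 11.74 in KO CD29lo and 11.48 and 11.73 in WT CD29lo. All CD29hi arrays were below all CD29lo arrays, as for Mmp3. The averaged log2 difference was -0.73 ± 0.155 (limma adjusted p = 0.0118), with -0.62 in KO (limma adjusted p = 0.1) and -0.83 in WT (limma adjusted p = 0.0553). All 6 probe sets of Timp2 were called lower in CD29hi when every probe set was tested, by 0.73 to 1.62, and the leading one had the smallest difference. Within a genotype, a dimmer probe set passed in KO (-1.38, limma adjusted p = 0.00883) and in WT (-1.86, limma adjusted p = 0.00356), as did another. The rest passed in KO only or in neither. For the leading probe set the averaged call was lost with the fibroblast covariate (-0.34 ± 0.218, limma adjusted p = 0.377) and without a trend of the variance (0.0554). The difference in WT passed when either KO CD29lo array was left out (limma adjusted p = 0.0336 for the first and 0.0333 for the second).

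Timp3, the inhibitor that binds to the matrix and also blocks several ADAM proteases, ran the other way. Its leading probe set read 11.06 and 11.50 in KO CD29hi and 11.09 and 10.74 in WT CD29hi, against 10.88 and 10.45 in KO CD29lo and 10.36 and 10.32 in WT CD29lo. Only WT CD29hi replicate 2 lay below a CD29lo array, KO CD29lo replicate 1. On average CD29hi was higher by 0.60 ± 0.152 on the log2 scale (limma adjusted p = 0.0247), with 0.62 in KO (limma adjusted p = 0.0965) and 0.57 in WT (limma adjusted p = 0.16). All 4 probe sets were called higher in CD29hi when every probe set was tested, by 0.60 to 1.10. Within a genotype, a dimmer probe set passed in KO (1.05, limma adjusted p = 0.0197) and in WT (1.08, limma adjusted p = 0.0256). Another passed in KO only (0.94, limma adjusted p = 0.0437), and the rest in neither. For the leading probe set the call rested on single arrays. The limma adjusted p was 0.0846 when the second KO CD29hi array was left out, 0.0624 for the second KO CD29lo array and 0.083 for the first WT CD29hi array. Leaving out either WT CD29lo array gave 0.0637 for the first and 0.062 for the second. A variance fitted with no trend also ended the call (0.0838), as did the fibroblast covariate (0.36 ± 0.25, limma adjusted p = 0.409).

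**Figure D2:**
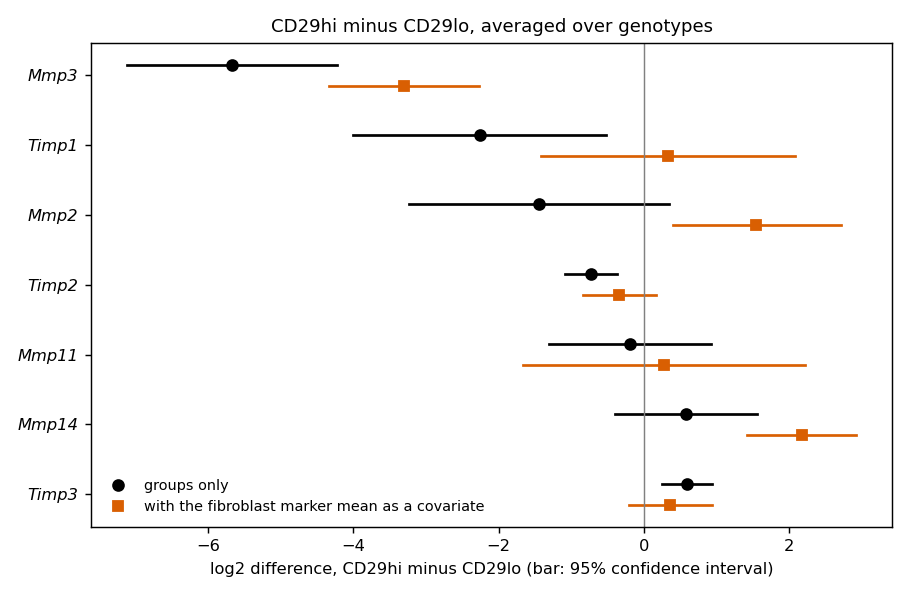
Log2 difference of CD29hi minus CD29lo averaged over genotypes (horizontal axis) for the 7 tested genes (vertical axis), with bars for the 95% confidence interval. Black circles come from the fit on the 4 groups and orange squares from the fit with the fibroblast marker mean added. Mmp3 stays below 0 in both (-5.67 and -3.30), Mmp14 lies at 0.58 on the 4 groups and at 2.17 with the covariate, and Mmp2 changes sign.

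Within CD29lo, Mmp2, Timp1 and Mmp14 took the order of the fibroblast markers across the arrays by their leading probe sets. From the lowest to the highest fibroblast mean the arrays were KO replicate 1 (7.06), WT replicate 1 (8.84), KO replicate 2 (10.28) and WT replicate 2 (10.89). In that order Mmp2 read 5.97, 7.98, 9.58 and 10.35, and Timp1 read 4.71, 7.47, 8.45 and 8.98. Mmp14 read 7.89, 8.27, 9.43 and 9.94. Mmp3 kept the lowest and the highest place (8.88 and 12.58) but not the order between them. The leading probe set of Timp2 read 11.22, 11.48, 11.74 and 11.73, which breaks the order only in the last step. Some of its dimmer probe sets kept the full order, for example at 10.72, 11.10, 11.15 and 11.52, and others did not. Timp3 varied little. These 4 arrays come from 2 genotypes, and the order is given as a description with no test. The share of all genes that take the same order was not counted.

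**Figure D3:**
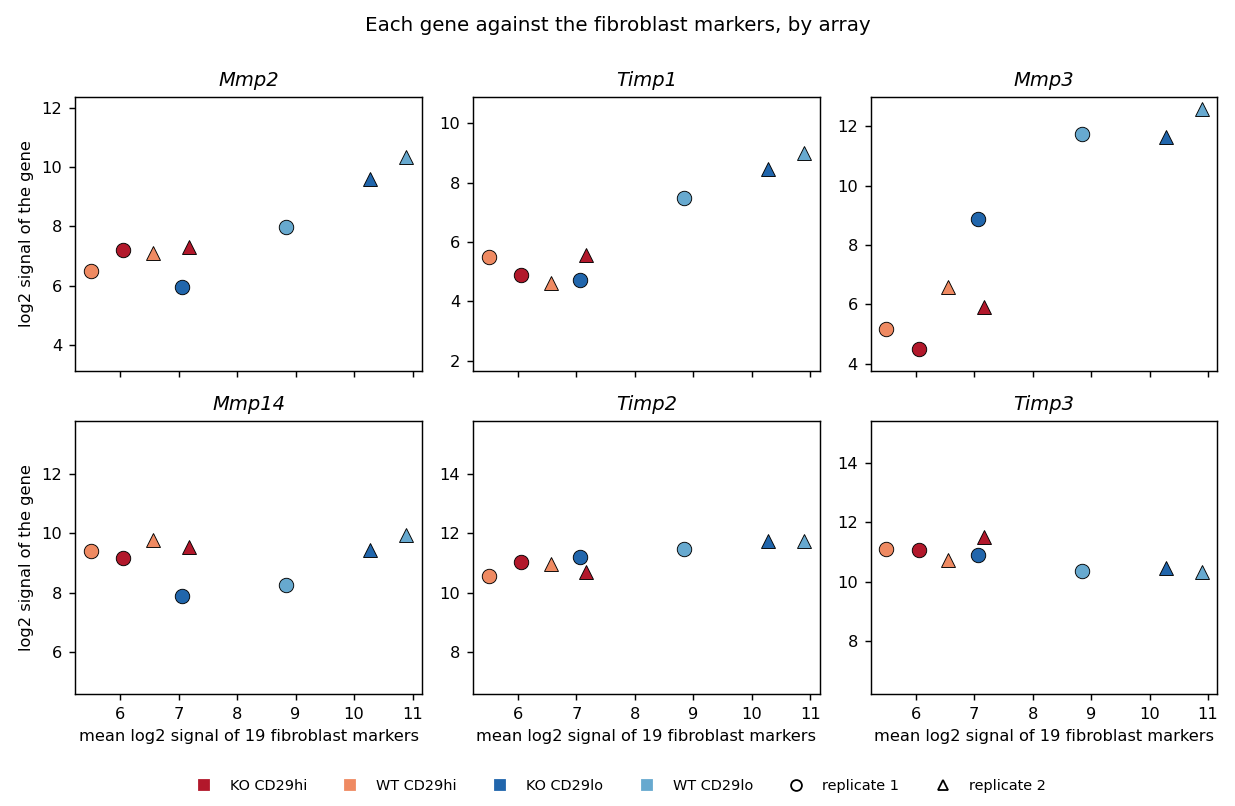
Log2 signal of 6 genes (vertical axis) against the mean log2 signal of 19 fibroblast markers (horizontal axis), 1 point per array, with colours for the groups and shapes for the replicate number. All panels span the same width on the vertical axis. KO CD29lo replicate 1 (dark blue circle, 7.06) is the lowest CD29lo array for Mmp2 (5.97), Timp1 (4.71), Mmp14 (7.89) and Mmp3 (8.88).

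Probe sets of the same gene gave the same direction between the gates throughout. The 2 probe sets of Mmp2 differed between CD29hi and CD29lo by -1.44 each, and the 3 of Mmp14 by 0.52 to 0.73. For Timp2 the dimmer probe sets showed differences of up to -1.62, against -0.73 for the brightest. Probe sets of different genes cannot be set against each other, since each has its own brightness.

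**Figure D4:**
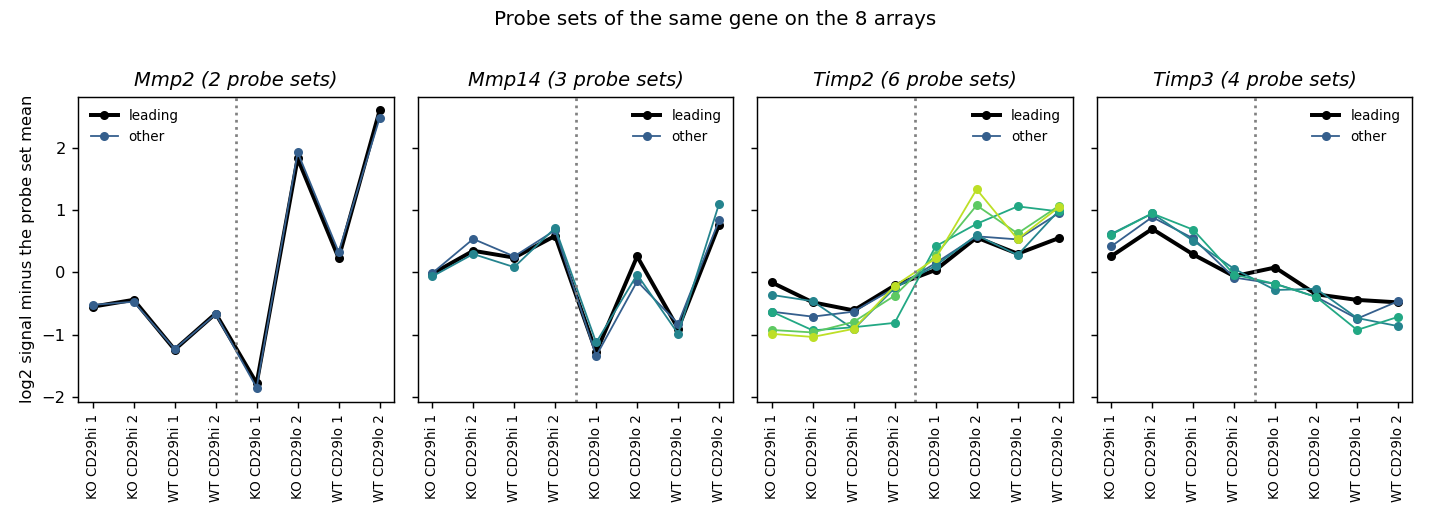
Log2 signal minus the mean of the probe set (vertical axis) on the 8 arrays (horizontal axis) for the genes with more than 1 probe set, with the leading probe set in black. Dotted lines separate CD29hi from CD29lo. The probe sets of a gene share the direction between the gates but not the size of the step, and those of Timp2 spread from -0.73 to -1.62 in the difference between the gates.

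Between the genotypes, none of the 7 tested genes passed in CD29hi, in CD29lo or averaged over both by limma. The background was 0.0137% of genes called in either gate and 0.0685% averaged, so few calls of any kind were made. At an unadjusted p under 0.05 there were 0 of 7 in CD29hi, 1 of 7 in CD29lo (Mmp11) and 0 of 7 averaged, against 7.84%, 6.68% and 9.27% of all genes. The question of the series was which pathways C/EBPb regulates in these cells, and for these genes the confidence intervals give the range of differences that the arrays leave.

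In CD29hi the log2 differences between KO and WT ran from -0.69 for Mmp3 to 0.45 for Mmp2, with a median of 0.09 against -0.02 over all genes. The Mmp3 difference had a 95% confidence interval of -2.72 to 1.35 and the Mmp2 difference one of -2.07 to 2.98 (limma adjusted p = 0.933 and 0.969). The KO arrays lay above the WT arrays for Mmp2, as for 18.3% of all genes, and for Mmp3 they overlapped. For the 19 fibroblast markers the KO arrays lay wholly above the WT arrays in 8 and wholly below in 3. The median difference of these markers was 0.53, with 11 above 0, 8 below and 0 called. With the fibroblast covariate the Mmp2 difference was -0.13 (limma adjusted p = 0.954). A part of fibroblast RNA in the Mmp2 difference was not tested further. The difference of Timp3 was 0.37 ± 0.215 (limma adjusted p = 0.774, 95% confidence interval -0.13 to 0.86).

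In CD29lo, 6 of the 7 genes had a log2 difference below 0 and the median was -1.39, against -0.06 over all genes. KO CD29lo replicate 1 had the lowest fibroblast mean of the gate and WT CD29lo replicate 2 the highest. All 19 fibroblast markers also had a difference below 0 there, with a median of -1.26 and 0 called. With the fibroblast covariate the difference in CD29lo was -0.18 for Mmp2, -0.59 for Timp1, -0.94 for Mmp3 and -1.56 for Mmp11, and none of these passed either (limma adjusted p = 0.956, 0.888, 0.65 and 0.684).

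Mmp3 had a log2 difference of -1.90 ± 0.888 between KO CD29lo and WT CD29lo (limma adjusted p = 0.749, 95% confidence interval -3.94 to 0.13), and its KO arrays (8.88 and 11.63) lay below its WT arrays (11.74 and 12.58). Mmp11 differed by -1.75 ± 0.688 (limma adjusted p = 0.694, 95% confidence interval -3.33 to -0.17), with 4.46 and 4.39 in KO against 5.30 and 7.05 in WT. These were the 2 genes of the set whose KO arrays lay wholly below the WT arrays, as was the case for 19.6% of all genes tested. Both differences moved with single arrays. That of Mmp3 was -0.53 without KO CD29lo replicate 1, -3.28 without KO CD29lo replicate 2 and -0.11 with KO CD29lo replicate 1 and WT CD29lo replicate 2 left out together. That of Mmp11 was -0.88 without WT CD29lo replicate 2, -2.63 without WT CD29lo replicate 1 and -0.91 with the same pair of arrays left out. Timp1 differed by -1.65 ± 1.08 (limma adjusted p = 0.817) and Mmp2 by -1.39 ± 1.10 (limma adjusted p = 0.851), with overlapping arrays. Both turned positive without KO CD29lo replicate 1 (0.23 and 0.42) and with that pair left out (0.98 and 1.60). Timp3 differed by 0.32 ± 0.215 (limma adjusted p = 0.817), with 10.88 and 10.45 in KO above 10.36 and 10.32 in WT, as for 14.7% of all genes.

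**Figure D5:**
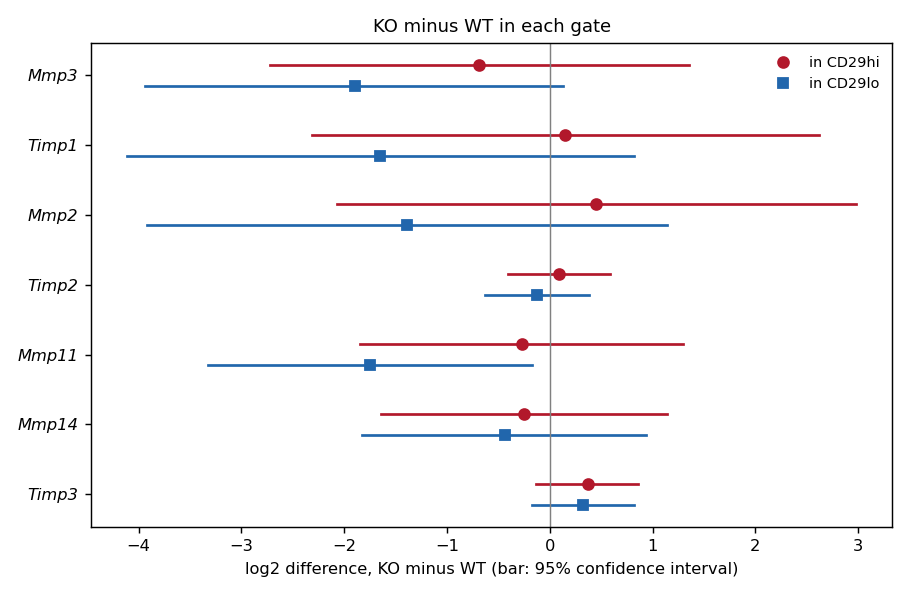
Log2 difference of KO minus WT (horizontal axis) for the 7 tested genes (vertical axis) in CD29hi (red circles) and CD29lo (blue squares), with bars for the 95% confidence interval. Every interval but that of Mmp11 in CD29lo (-3.33 to -0.17) holds 0, and those of Timp2 and Timp3 are the narrowest.

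Averaged over the gates, the smallest p values of the set belonged to Timp3 (0.34 ± 0.152, limma adjusted p = 0.545), Mmp11 (-1.01 ± 0.486, limma adjusted p = 0.579) and Mmp3 (-1.29 ± 0.628, limma adjusted p = 0.583). The 4 probe sets of Timp3 gave averaged differences of 0.34 to 0.51, all above 0 and none called. No gene's genotype difference was shown to depend on the gate. The smallest adjusted p of the set for the difference between the genotype contrasts was that of Mmp11 (1.48 ± 0.973, limma adjusted p = 0.961), against a background of 0% of all genes by limma (4.95% at an unadjusted p under 0.05).

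Related genes were taken from lists of the rest of the family and its partners. Of 19 other MMP and inhibitor genes, 10 were bright enough to be tested, and between the gates 1 was called higher and 1 lower in CD29hi, where 22.9% of all genes tested were called. Mmp19, a secreted protease of many normal tissues, was the one called lower. It read 4.14 and 3.93 in KO CD29hi and 4.0 and 5.47 in WT CD29hi, against 6.86 and 10.46 in KO CD29lo and 8.93 and 10.63 in WT CD29lo, with a log2 difference of -4.83 ± 0.768 (limma adjusted p = 0.00295). The GPI-anchored Mmp17 was the one called higher, by 2.07 ± 0.37 (limma adjusted p = 0.00527). Mmp17 read 5.82 and 6.23 in KO CD29hi and 5.64 and 6.22 in WT CD29hi, against 3.54 and 4.53 in KO CD29lo and 3.37 and 4.20 in WT CD29lo. Its values of 3.54 and 3.37 lay below the backgrounds of their arrays, as did the 3.93 of Mmp19, so both differences are limited by the background. The stromelysin 2 gene Mmp10 (-1.88, limma adjusted p = 0.0623) and the collagenase gene Mmp13 (-1.94, limma adjusted p = 0.0665) did not pass. Between the genotypes none of the 10 passed.

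Among proteases and inhibitors that activate MMPs or share their substrates, most genes did not pass between the gates, and calls were made in both directions. Of 16 ADAM and ADAMTS genes tested, 3 were called higher in CD29hi and 4 lower, beside the same 22.9% of all genes. Among them were Adamts20 (3.77, limma adjusted p = 0.000478) and Adamts9 (2.74, limma adjusted p = 0.00315), secreted proteases of proteoglycans, and the sheddase gene Adam10 (-0.71, limma adjusted p = 0.0026). Adamts20 read 2.55 and 1.64 in KO CD29lo and 2.17 and 1.84 in WT CD29lo, below the background of every CD29lo array. The size of its difference is therefore not a measured fold. Of 15 genes of MMP activation and the plasminogen system, 2 were called higher and 3 lower. The proprotein convertase gene Furin, whose enzyme cuts the propeptides of Mmp11 and Mmp14, was higher in CD29hi by 0.32 (limma adjusted p = 0.0259). The protease inhibitor gene Spint1 (-1.13, limma adjusted p = 0.000932) and its target matriptase, St14 (-0.76, limma adjusted p = 0.00635), were lower. Between the genotypes none of these genes passed, and the urokinase gene Plau came closest, at -2.23 in CD29hi (limma adjusted p = 0.147). Its difference in CD29lo was -0.13 (limma adjusted p = 0.954). Plau read 8.84 and 8.60 in KO CD29hi and 10.56 and 11.35 in WT CD29hi.

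The genes whose log2 values ran most like each member over the 8 arrays, by Pearson correlation among the 14598 tested genes, are a description only, since the gates form separate clusters of arrays. For Mmp3 these were Pla1a (0.987), Fbxo6 (0.985) and Marchf8 (0.98). For Mmp2 they were Steap3 (0.986), Medag (0.981) and Zfp469 (0.98), and for Timp1 Tnfaip6 (0.994), Adgrd1 (0.98) and Cfb (0.977). Timp2 was most like Golm1 (0.987), Timp3 like Mtfp1 (0.982), Mmp14 like Clip3 (0.983) and Mmp11 like Camk2n2 (0.968).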

How the data were processed

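RNA of 8 sorted samples was measured on Affymetrix arrays. Per the labels' protocols, RNA was isolated with the Arcturus Pico Pure kit, mRNA amplified with a NuGEN FFPE kit and biotinylated cRNA made by the Affymetrix protocol. The deposited values are 1 log2 signal per probe set and array, floored at 0. The log2 scale was read from the values, and the authors' scaling method is not given in the sources used here. Array medians lay between 5.45 and 5.67, and no further normalization was applied. The number of arrays limits the precision.

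Of 45101 probe sets, 34958 carry 1 gene, 932 several and 9211 none in the platform's 2016 annotation, and symbols were updated by gene ID through RefSeq (GRCm38) for 34754. Genes were represented by their probe set of highest mean, and those under the 25th percentile of probe set means (3.51) were not tested. Differences were tested two-sided with limma 3.58.1 in R 4.3.3 (lmFit on 4 groups, eBayes with trend, 4 residual and 4.31 prior degrees of freedom), with Benjamini-Hochberg adjustment over 14598 genes and a threshold of 0.05. The fit was tested on simulated data. Plots used matplotlib 3.10.9. The genes named are the 9 of the set, some genes of the lists and up to 3 most like each gene. Those named from a list are not always the ones of smallest p, and other called genes go unnamed. Members and lists were chosen with earlier results of these data known. The alternatives were quantile normalization, no filter, a 50th percentile filter, the mean of probe sets, every probe set, no trend, a replicate block, a fibroblast covariate (mean of 19 markers), values raised to 4, KO CD29lo replicate 1 and WT CD29lo replicate 2 left out together, and each array left out.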

Additional observations from a re-analysis of the deposited data

How the results depend on the processing

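Counts here are of the 7 tested genes called. Between the genotypes the count was 0 in each gate, averaged and for their difference, under all 18 alternatives. Averaged between the gates the count of 3 was 1 without a trend, 2 with the fibroblast covariate, 4 with the replicate block, 5 with KO CD29lo replicate 1 and WT CD29lo replicate 2 left out together, and 2 to 5 leaving out each array, with 5 without KO CD29lo replicate 1. In KO the count of 1 was 3 with the mean of probe sets, 2 with the fibroblast covariate, 3 with those 2 arrays left out and 0 to 2 leaving out each array, with 0 once KO CD29hi replicate 1 was dropped and 2 once KO CD29lo replicate 1 was. In WT the count of 1 was 2 with quantile normalization, the 50th percentile filter, the mean of probe sets, the replicate block, the fibroblast covariate and those 2 arrays left out, and 1 to 3 leaving out each array, with 3 without KO CD29lo replicate 1 or 2.

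The replicate number was used as a block only as an alternative, since the labels do not say that it marks the paired sets. Between groups, the differences of replicate 1 and replicate 2 correlated at 0.006 to 0.321. With the block Timp2 in WT (-0.83, limma adjusted p = 0.0397) and averaged Timp1 (-2.26, limma adjusted p = 0.0392) passed, and no other call among the 27 gene results changed.

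With the fibroblast covariate these differences between CD29hi and CD29lo changed sign: Mmp2 averaged (1.55), Mmp11 averaged (0.27) and Timp1 averaged (0.33), in KO (0.45) and in WT (0.21). So did Mmp2 between KO and WT in CD29hi (-0.13). With the 2 arrays left out, Mmp2 (1.60) and Timp1 (0.98) between KO and WT in CD29lo and averaged Mmp11 between the gates (0.26) changed sign. Leaving out each array gave ranges across 0 for Mmp3 between KO and WT in CD29hi (-1.39 to 0.02), Mmp2 and Timp1 in CD29lo (-3.19 to 0.42 and -3.51 to 0.23), Timp1 between the gates in KO (-3.23 to 0.51) and Mmp11 averaged between the gates (-0.63 to 0.25). Of 482 values of 27 gene results under the alternatives, 437 kept their direction and side of the threshold, 10 lost and 18 gained a call, and 17 changed sign. Mmp11 was too dim for the 50th percentile filter.

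Over all genes, the counts called between the gates (3345 averaged, 2053 in KO and 1196 in WT) ranged over 1720 to 5719, 722 to 3569 and 512 to 1945 under all alternatives. Between the genotypes they ranged over 0 to 9 in CD29hi, 0 to 7 in CD29lo and 2 to 29 averaged, against 2, 2 and 10. In these ranges the alternative with every probe set tested counts probe sets and not genes. The signal over background limits Mmp7, which was above the background on none of the 8 arrays, and Mmp11.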

Other observations

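Some genes that encode MMP substrates and regulators were also called between the gates, where 22.9% of all genes tested were called. Of 18 matrix genes tested, 4 were called higher in CD29hi, 2 were called lower and the rest did not pass, with a median log2 difference of 0.88 against 0.01 over all genes. The epithelial laminin subunits Lamb3 (3.41, limma adjusted p = 7e-06) and Lama3 (4.76, limma adjusted p = 4.84e-05) and the hemidesmosome collagen gene Col17a1 (5.05, limma adjusted p = 3.37e-05) were higher. The laminin subunit gene Lama5 (-0.83, limma adjusted p = 0.0222) and the fibulin gene Efemp1 (-5.03, limma adjusted p = 0.00284) were lower. Efemp1 read 3.81 and 5.34 in KO CD29hi and 4.05 and 5.01 in WT CD29hi, against 7.46 and 10.66 in KO CD29lo and 8.89 and 11.33 in WT CD29lo, so KO CD29lo replicate 1 was the lowest array of its gate here as well.

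Of 14 genes tested from a list of AP-1 and ETS factors, 3 were called higher in CD29hi and 5 lower. The list also held Runx1, a factor of neither family, which was 1 of the 3 called higher (0.93, limma adjusted p = 0.000248). Etv5 (2.14, limma adjusted p = 0.000246) was higher too. Ets2 (-0.78, limma adjusted p = 0.000256), Elf3 (-1.94, limma adjusted p = 0.000797) and Fos (-1.0, limma adjusted p = 0.00112) were lower. Fos read 10.40 and 10.54 in KO CD29hi and 10.13 and 10.57 in WT CD29hi, against 11.88 and 11.60 in KO CD29lo and 10.99 and 11.17 in WT CD29lo. Between the genotypes none of these 14 genes passed. At an unadjusted p under 0.05 there were 4 in CD29hi, 4 in CD29lo and 7 averaged, against 7.84%, 6.68% and 9.27% of all genes. The averaged difference was above 0 in 11 and below 0 in 3. Fosb had the smallest p of the 14 there (0.99, limma adjusted p = 0.182).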
